A study of Homo sapiens with 6 samples.

Results

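The genes of the mitochondrial respiratory chain were analyzed in BT-549 cells with and without silencing of PBRM1, the chromatin-targeting subunit of the PBAF remodeling complex. The 63 genes were selected by symbol from the 37887 rows of the count table. They were 13 mitochondrial-encoded genes, which are the MT-ND, MT-CO, MT-ATP and MT-CYB symbols, and 50 nuclear-encoded genes, which are numbered NDUF genes, the 4 SDH genes, 8 UQCR genes and CYC1. The rule uses no measured value. BT-549 is an established triple-negative breast cancer (TNBC) cell line of mesenchymal type. The sample titles name a control shRNA (shCTL, 3 libraries) and a PBRM1 shRNA (shPBRM1, 3 libraries). The series design instead describes a single stable tet-PBRM1 shRNA line that received either vehicle (0.1% DMSO, the shCTL libraries) or 500 ng/ml doxycycline (DOX, the shPBRM1 libraries), and the treatment labels give the same split. DOX also blocks translation on mitochondrial ribosomes, and no library analysed here had DOX without the silencing, so that these effects cannot be told apart. If the groups were instead separate lines, as the titles may be read, differences between the lines cannot be told apart from the silencing either. For its chromatin accessibility assays, the paper's legends name BT-549/CshRNA (control shRNA) and BT-549/PBRM1shRNA cells, without mention of DOX. The duration of exposure for these cultures, which were grown in triplicate, is not given in the sources used here.

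The respiratory chain is built from the products of both genomes. Mitochondrial DNA (mtDNA) encodes core membrane subunits of complex I, cytochrome b of complex III, the catalytic core of complex IV and a pair of ATP synthase subunits. The nuclear genome encodes all other subunits, including the whole of complex II, and these are made in the cytosol and imported. The mitochondrial genes are transcribed as long polycistronic RNAs from the heavy and the light strand, cut largely at the tRNAs, and polyadenylated, which is why most of them are captured by poly(A) selection.

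The libraries were prepared from total RNA with a stranded mRNA kit, and total counts were between 36429395 and 65096297 per library. PBRM1 was at 158 ± 2.30 CPM (counts scaled to the library size by TMM; SD, n = 3) in shCTL cells, compared with 41.9 ± 1.22 CPM (SD, n = 3) in shPBRM1 cells. Of the markers checked for the line, VIM was at 620 and 769 CPM and ZEB1 at 197 and 135 CPM in shCTL and shPBRM1 cells, with CDH1 at 5.0 and 1.51 CPM and ERBB2 at 51.2 CPM in shCTL cells, while ESR1 and PGR had at most 2 and 12 counts in any library. Of 6 markers of immune, endothelial and liver cells, PTPRC was the single one with enough counts to be tested, at 0.797 CPM in shCTL and 0.132 CPM in shPBRM1 cells, and CD3E had 0 counts in every library. Libraries with the same replicate number deviated from their group means together, most clearly for replicate 1. However, shPBRM1 replicate 3 followed shCTL replicate 2 at least as closely as shCTL replicate 3. Over all genes, shPBRM1 replicate 1 differed more from replicates 2 and 3 of its group (chi-square per degree of freedom 21.5 and 24.9) than these from each other (7.20). The shCTL libraries differed by 4.92 to 7.35.

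In shPBRM1 cells, the transcripts of the respiratory chain from each genome shifted in opposite directions. Of the 13 mitochondrial-encoded genes, 11 were lower, 1 (MT-ND3) was higher and 1 (MT-ND2) did not pass the test in shPBRM1 cells. Of the 50 nuclear-encoded genes, 40 were higher, none was lower and 10 did not pass. The test was edgeR's quasi-likelihood test at an adjusted p under 0.05, with Benjamini-Hochberg adjustment over 15450 genes, and all 63 genes passed the filter on low counts. Many other genes changed as well: of all tested genes, 64.7% were called, 31.5% higher and 33.2% lower. The median log2 fold change was -0.20 over the mitochondrial-encoded genes, between -0.63 and 0.31, and 0.36 over the nuclear-encoded genes, between -0.07 and 1.01. Over all tested genes it was -0.0080, with quartiles at -0.40 and 0.31. Most of these differences were small, and NDUFA4 was the single one of the 63 genes past a fold change of 2, which 2.87% of all tested genes passed upward and 9.68% downward. In RNA from whole cultures, fewer cells of a kind and less RNA per cell cannot be told apart.

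**Figure D1:**
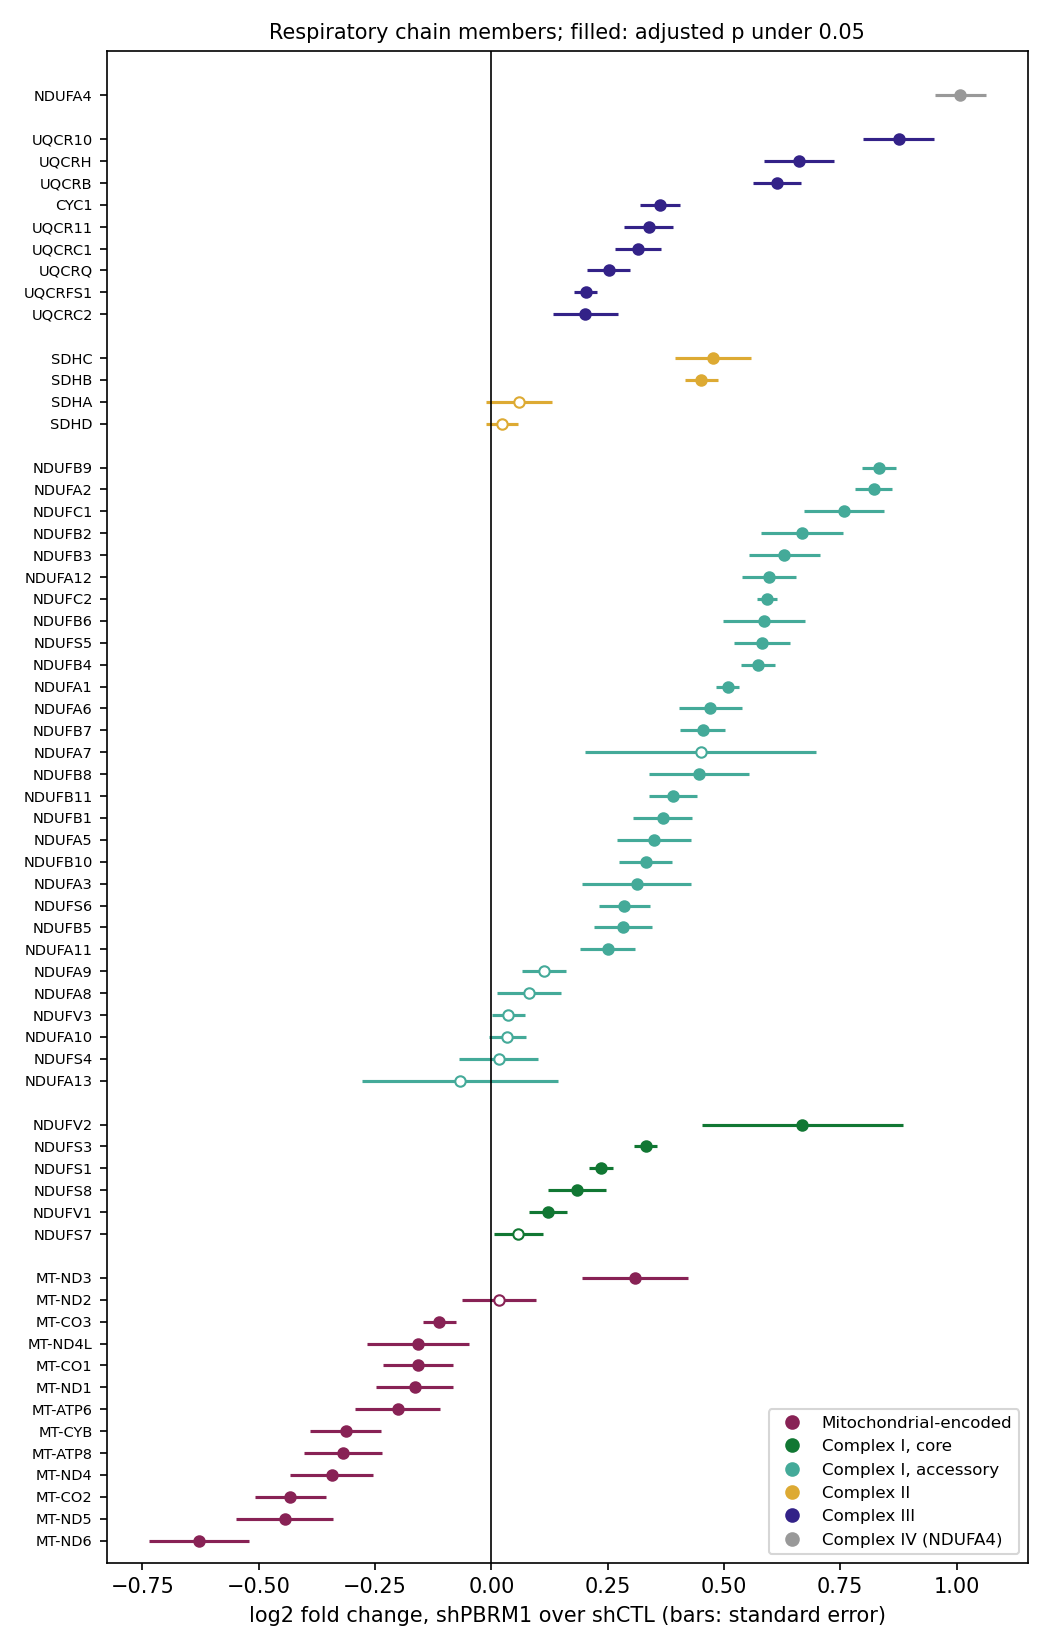
Log2 fold change of the respiratory chain genes (1 core gene of complex I is not shown) in shPBRM1 relative to shCTL cells (points, with standard errors as bars; n = 3 libraries per group; filled points have an adjusted p under 0.05), grouped by genome of origin and complex. The mitochondrial-encoded genes lie mostly left of 0 and the nuclear-encoded genes right of it, with NDUFA4 at 1.01 and MT-ND6 at -0.63.

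The 13 mitochondrial-encoded genes made up 4.05%, 3.45% and 3.58% of all counts in shCTL replicates 1, 2 and 3. In shPBRM1 replicates 1, 2 and 3, the share was 3.0%, 3.07% and 3.09%. The groups did not overlap, although shCTL replicate 1 was well above the other shCTL libraries. The 50 nuclear-encoded genes together took a far smaller share, 0.246% ± 0.00285 (SD, n = 3) in shCTL and 0.320% ± 0.00700 (SD, n = 3) in shPBRM1 cells. The ratio of mitochondrial-encoded to nuclear-encoded counts was thus 16.6, 13.8 and 14.7 in the shCTL and 9.47, 9.79 and 9.45 in the shPBRM1 libraries. The same was seen for complexes I to III alone, with 8 mitochondrial-encoded and 49 nuclear-encoded genes, where the ratio of summed CPM was 7.06 ± 0.752 (SD, n = 3) in shCTL and 4.53 ± 0.0524 (SD, n = 3) in shPBRM1 cells. Both sides contributed, as the mitochondrial-encoded sum was 16397 ± 1528 CPM in shCTL and 13866 ± 387 CPM in shPBRM1 cells and the nuclear-encoded sum was 2323 ± 33.8 and 3063 ± 73.6 CPM. These shares and ratios are given as descriptions, without a test.

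**Figure D2:**
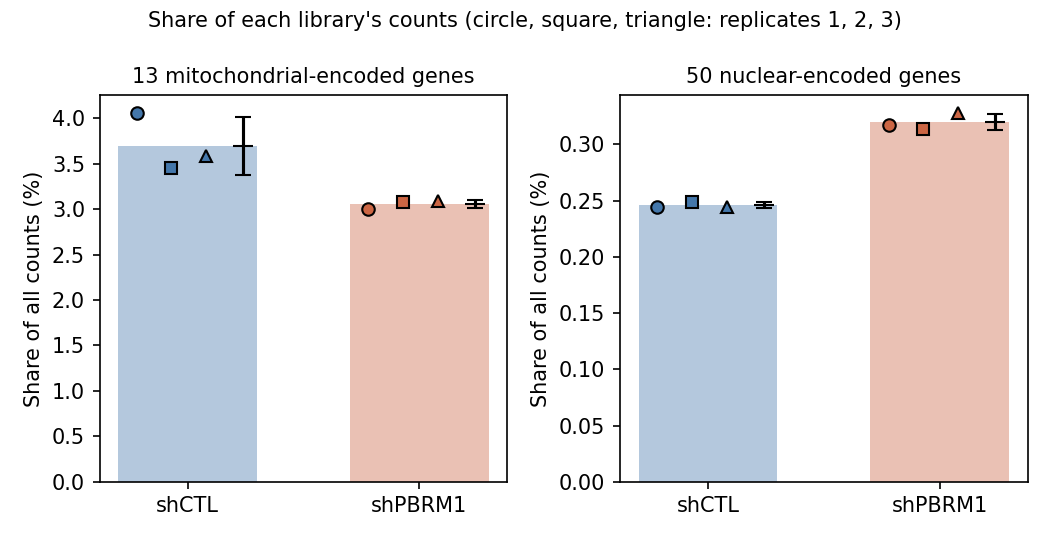
Share of each library's counts (%) on the 13 mitochondrial-encoded genes (left) and the 50 nuclear-encoded genes (right) in shCTL and shPBRM1 cells; symbols are libraries, bars are group means and error bars are SD (n = 3). The mitochondrial-encoded share was 3.69% in shCTL and 3.06% in shPBRM1 cells, and the nuclear-encoded share was 0.246% and 0.320%.

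Complex I oxidizes NADH, passes the electrons to ubiquinone and pumps protons, and the 7 ND subunits encoded in mtDNA form the core of its membrane arm. Of these, 5 were lower and 1 was higher in shPBRM1 cells, compared with 33.2% and 31.5% of all tested genes. MT-ND6, the gene with the largest decrease, was at 758, 625 and 668 CPM in the shCTL libraries and at 401, 461 and 466 CPM in the shPBRM1 libraries. The highest shPBRM1 library was thus well below the lowest shCTL library. On the log2 scale the fold change was -0.63 (standard error, SE, 0.11; adjusted p = 2.58e-09 by edgeR). MT-ND6 is also the single protein-coding gene of the light strand. It took 1.92%, 1.84% and 1.89% of the CPM of the 13 genes in the shCTL and 1.33%, 1.46% and 1.47% in the shPBRM1 libraries, so that its level was lower also relative to the 12 heavy-strand genes. Whether reads were counted by strand is not given in the sources used here, and without strand the reads of MT-ND6 cannot be told apart from heavy-strand RNA across the same stretch (chrM:14149-14673).

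MT-ND5 and MT-ND4 encode antiporter-like subunits of the proton-pumping arm. MT-ND5 was at 2380, 1940 and 2052 CPM in shCTL and at 1504, 1497 and 1682 CPM in shPBRM1 libraries, with a log2 fold change of -0.44 (SE 0.10, adjusted p = 1.4e-07). MT-ND4 was at 6340, 5223 and 5586 CPM in shCTL and at 4363, 4438 and 4719 CPM in shPBRM1 libraries, with a log2 fold change of -0.34 (SE 0.089, adjusted p = 4.04e-07). For both genes, the groups did not overlap. MT-ND2, another antiporter-like subunit, differed by less than the spread between replicates: it was at 1446, 1196 and 1311 CPM in shCTL and at 1336, 1338 and 1323 CPM in shPBRM1 libraries, and its log2 fold change was 0.02 (SE 0.079, adjusted p = 0.783). Pseudogene rows of MT-ND2 held 3.89% as many counts as the gene itself, mainly MTND2P28, so that its counts are less certain than those of most of the others.

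MT-ND3, a small membrane subunit, stood out among the 13 genes. It was at 1381, 1296 and 1313 CPM in the shCTL libraries and at 1458, 1895 and 1590 CPM in the shPBRM1 libraries. All 3 shPBRM1 libraries were above the shCTL libraries, with replicate 1 closest to them. Its log2 fold change was 0.31 (SE 0.11, adjusted p = 6.73e-05). This direction depended on the model: when offsets for GC content and transcript length were fitted together with a replicate block, a setting chosen after the data had been seen, the log2 fold change of MT-ND3 was -0.14 (adjusted p = 0.00532 from edgeR) and that of MT-ND2 was -0.18 (adjusted p = 6.04e-06). The neighbours of MT-ND3 along mtDNA, MT-CO3 and MT-ND4L, had log2 fold changes of -0.11 and -0.16.

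MT-ND1, which borders the ubiquinone-binding site, was at 1688, 1406 and 1474 CPM in shCTL and at 1399, 1314 and 1361 CPM in shPBRM1 libraries (log2 fold change -0.17, SE 0.083, adjusted p = 0.00409). The lowest shCTL and the highest shPBRM1 value were only just apart. MT-ND4L was at 476, 381 and 393 CPM in shCTL and at 396, 363 and 361 CPM in shPBRM1 libraries, so that the groups overlapped (log2 fold change -0.16, SE 0.11, adjusted p = 0.0263). Both calls were lost without shCTL replicate 1, the library with the highest value of all 13 mitochondrial-encoded genes among the shCTL libraries: without it, the log2 fold changes were -0.09 and -0.05, with adjusted p = 0.0778 and 0.378. They were also lost under DESeq2 (adjusted p = 0.110 and 0.277), and that of MT-ND4L without shPBRM1 replicate 2 (adjusted p = 0.0982) or 3 (adjusted p = 0.130). MT-ND4L also shared 7 bases with MT-ND4 in the annotation.

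Cytochrome b, encoded by MT-CYB, is the single mitochondrial-encoded subunit of complex III, which carries electrons from ubiquinol to cytochrome c. MT-CYB was at 3626, 3070 and 3161 CPM in the shCTL libraries and at 2589, 2640 and 2706 CPM in the shPBRM1 libraries. The groups did not overlap, and the log2 fold change was -0.31 (SE 0.076, adjusted p = 7.41e-07). All 9 nuclear-encoded genes of the same complex were higher, as given further on.

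All 3 mitochondrial-encoded genes of complex IV, the cytochrome c oxidase, were lower in shPBRM1 cells. MT-CO2, whose product accepts electrons from cytochrome c, was at 4196, 3513 and 3908 CPM in shCTL and at 2880, 2927 and 2803 CPM in shPBRM1 libraries. Its groups were far apart relative to their spread (log2 fold change -0.43, SE 0.077, adjusted p = 3.45e-09). MT-CO1, the catalytic heme-copper subunit, was at 8395, 7409 and 7367 CPM in shCTL and at 6527, 7000 and 7236 CPM in shPBRM1 libraries (log2 fold change -0.16, SE 0.076, adjusted p = 9.12e-04). MT-CO3 was at 4905, 4760 and 4654 CPM in shCTL and at 4334, 4591 and 4328 CPM in shPBRM1 libraries (log2 fold change -0.11, SE 0.036, adjusted p = 0.00127). For MT-CO1 and MT-CO3 the groups were separate by a narrow margin, and the decrease of MT-CO3 was the smallest among the 11 genes called lower. MT-CO3 was the highest of the 13 genes per exon length, at 6088 and 5635 CPM per kilobase in shCTL and shPBRM1 cells.

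MT-ATP8 and MT-ATP6, subunits of the membrane part of ATP synthase, were lower as well. They are read from 1 bicistronic mRNA in overlapping reading frames. MT-ATP8 was at 942, 778 and 862 CPM in shCTL and at 686, 713 and 672 CPM in shPBRM1 libraries (log2 fold change -0.32, SE 0.083, adjusted p = 7.03e-06). MT-ATP6, which forms part of the proton channel, was at 2986, 2443 and 2610 CPM in shCTL and at 2244, 2421 and 2329 CPM in shPBRM1 libraries (log2 fold change -0.20, SE 0.091, adjusted p = 7.7e-04). Neither gene had overlapping groups, though for MT-ATP6 the margin between shCTL replicate 2 and shPBRM1 replicate 2 was narrow. The overlaps are shown because reads in them belong to both genes and their handling in the counting is not given in the sources used here. The end of the first gene and the start of the second gene are given 5′ to 3′ from the GENCODE v29 transcripts of GRCh38, on the plus strand of chrM, with the 46 shared bases of MT-ATP8 and MT-ATP6 and the 7 shared bases of MT-ND4L and MT-ND4 in capitals.
MT-ATP8, last 90 bases (chrM:8483-8572): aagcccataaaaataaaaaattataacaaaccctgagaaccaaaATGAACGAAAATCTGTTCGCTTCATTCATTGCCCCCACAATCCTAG
MT-ATP6, first 90 bases (chrM:8527-8616): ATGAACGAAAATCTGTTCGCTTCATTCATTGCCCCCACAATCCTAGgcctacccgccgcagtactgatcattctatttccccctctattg
MT-ND4L, last 90 bases (chrM:10677-10766): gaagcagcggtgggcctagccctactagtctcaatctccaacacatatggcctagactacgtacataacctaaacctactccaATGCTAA
MT-ND4, first 90 bases (chrM:10760-10849): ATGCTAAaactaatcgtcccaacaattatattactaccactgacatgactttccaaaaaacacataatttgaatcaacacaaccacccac
The capitals of MT-ATP8 hold 22.2% of its exon length, whereas the overlap of MT-ND4L and MT-ND4 is 2.36% of the former and 0.508% of the latter. MT-ATP6 had the most pseudogene counts of the 13 genes, 7.37% as many as its own, mainly on MTATP6P1.

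**Figure D3:**
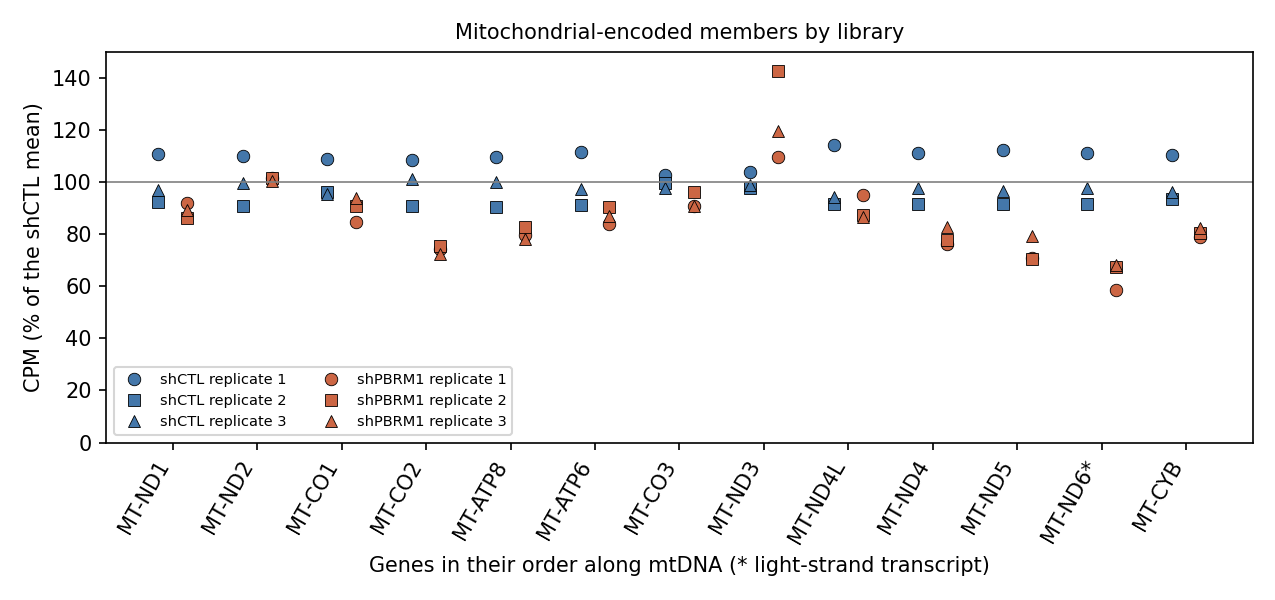
CPM of the 13 mitochondrial-encoded genes as a percentage of the mean of the shCTL libraries, in their order along mtDNA, for each library (blue, shCTL; orange, shPBRM1; the asterisk marks the light-strand gene). MT-ND6 is at 64.7% of the shCTL level by its fitted fold change and MT-ND3 at 124%, and shCTL replicate 1 is the highest shCTL library for all 13 genes.

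Along the heavy strand, the decreases did not run in the order of transcription. Log2 fold changes of -0.17, 0.02 and -0.16 for the first 3 protein-coding genes, MT-ND1, MT-ND2 and MT-CO1, were followed by -0.43 for MT-CO2. The values were then less negative from gene to gene over MT-ATP8, MT-ATP6 and MT-CO3, up to the 0.31 of MT-ND3, and more negative again over MT-ND4L, MT-ND4 and MT-ND5, down to -0.44. Within each replicate number, 12, 11 and 11 of the 13 genes were lower in the shPBRM1 library than in the shCTL library of the same number, for replicates 1, 2 and 3. The median log2 ratio of the 13 genes was -0.41 for replicate 1, -0.10 for replicate 2 and -0.16 for replicate 3. The decrease was thus largest for replicate 1, and without shCTL replicate 1 the median log2 fold change was -0.12. Without replicate 1 of both groups, 6 of the 13 genes were called lower and MT-ND3 higher. The 6 genes did not include MT-ND1, MT-ND4L, MT-CO1, MT-CO3 or MT-ATP6, which all lost their call. With DESeq2 in place of edgeR, 7 of the 13 genes were called lower.

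The mitochondrial rRNAs, which are transcribed from the same heavy strand, varied between libraries far more than any of the 13 mRNAs. MT-RNR1 (12S rRNA) was at 1.55, 73.9 and 29.7 CPM in the shCTL libraries and at 5.79, 1004 and 1513 CPM in the shPBRM1 libraries. MT-RNR2 (16S rRNA) was at 2.89, 99.7 and 47.5 CPM in shCTL and at 7.36, 1394 and 2135 CPM in shPBRM1 libraries. The groups overlapped, because shPBRM1 replicate 1 was below shCTL replicates 2 and 3. Within each replicate number, however, both rRNAs were higher in the shPBRM1 library. Both were also called higher by edgeR, with log2 fold changes of 4.57 (adjusted p = 2.99e-04) for MT-RNR1 and 4.55 (adjusted p = 3.51e-04) for MT-RNR2. The rRNAs ranked the libraries in the same order as each other, and replicate 1 had the lowest rRNA value of its group in both groups. Their standard errors on the log2 scale, 3.07 and 3.05, compare with at most 0.11 for the mRNAs. The part of this variation in the decreases of the 13 mRNAs was not tested. It took at most 0.357% of the counts of any library.

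**Figure D4:**
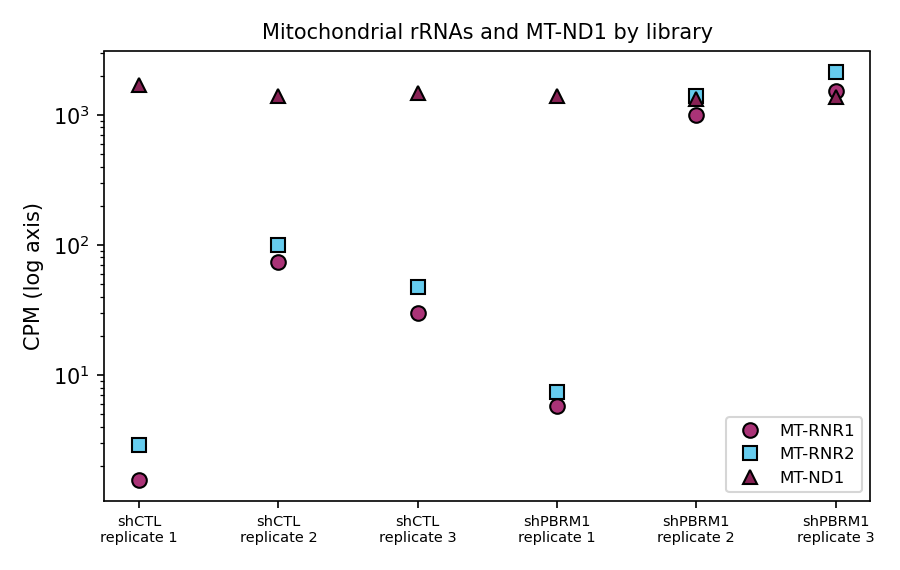
CPM (log axis) of the mitochondrial rRNAs MT-RNR1 and MT-RNR2 and of the mRNA MT-ND1 in each of the 6 libraries. The rRNAs range from 1.55 to 2135 CPM and are lowest in replicate 1 of each group, whereas MT-ND1 lies between 1314 and 1688 CPM.

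Among the nuclear-encoded genes of complex I, the 7 core subunits form the hydrophilic arm that holds the FMN and the iron-sulfur clusters. Of these, 6 were higher in shPBRM1 cells, compared with 31.5% of all tested genes. The median log2 fold change over the 7 genes was 0.24. NDUFS3 was at 40.7, 40.5 and 41.7 CPM in shCTL and at 52.0, 50.1 and 52.5 CPM in shPBRM1 libraries, with little spread within either group (log2 fold change 0.33, SE 0.024, adjusted p = 5.3e-07). NDUFS1, an iron-sulfur protein of the NADH-oxidizing module, was at 119, 123 and 125 CPM in shCTL and at 145, 141 and 145 CPM in shPBRM1 libraries (log2 fold change 0.24, SE 0.025, adjusted p = 2.59e-06). NDUFS8, which carries a pair of iron-sulfur clusters, and NDUFV1, which binds NADH and FMN, had smaller increases of 0.18 (SE 0.062, adjusted p = 0.00188) and 0.12 (SE 0.041, adjusted p = 0.00732). The call of NDUFV1 was lost without shCTL replicate 3 (adjusted p = 0.0759) and without scaling factors (adjusted p = 0.116), and that of NDUFS8 in a fit, described further on, with the replicate number as a block and GC and length as offsets (0.05, adjusted p = 0.276). NDUFS7 did not pass the test, at 5.92, 6.29 and 5.81 CPM in shCTL and 6.58, 6.22 and 5.98 CPM in shPBRM1 libraries (log2 fold change 0.06, SE 0.053, adjusted p = 0.622). NDUFV2 had the largest value of the 7 genes, 0.67 (SE 0.22, adjusted p = 0.00189), but at a level of 2.38, 1.71 and 1.43 CPM in shCTL and 3.0, 2.93 and 2.73 CPM in shPBRM1 libraries, with 28.4% of its exon length shared with another gene of the same strand and pseudogene counts at 21.3% of its own.

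The ratio of mitochondrial-encoded to nuclear-encoded core subunits of complex I could be set side by side, since each genome encodes 7 of them. The summed CPM of the ND genes was 13111 ± 1232 (SD, n = 3) in shCTL and 11221 ± 331 (SD, n = 3) in shPBRM1 cells. That of the nuclear-encoded core genes was 426 ± 5.56 (SD, n = 3) and 496 ± 2.89 (SD, n = 3). The ratio was 34.0, 28.0 and 30.5 in the shCTL and 21.7, 22.8 and 23.3 in the shPBRM1 libraries, without overlap.

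The 29 accessory subunits of complex I, which surround the core and are needed for its assembly and stability, included 22 genes that were higher, with a median log2 fold change of 0.45 over the 29 genes. All 11 NDUFB genes, which belong to the distal membrane arm, and both NDUFC genes were among those called higher. Of all tested genes, 31.5% were higher, and 49.1% of those with a mean above 5 on the log2 CPM scale. Among genes above that level with a coding length under 600 bases, 70.0% were higher. In the same fit, with the block and the GC and length offsets, NDUFB1 (0.02, adjusted p = 0.676), NDUFB5 (-0.03, adjusted p = 0.635) and NDUFS6 (0.0030, adjusted p = 0.947) lost their calls. NDUFB9 was at 91.1, 90.3 and 92.2 CPM in shCTL and at 157, 161 and 170 CPM in shPBRM1 libraries. The groups were far apart, and its log2 fold change of 0.83 (SE 0.036, adjusted p = 2.53e-15) was the largest of the accessory genes. NDUFA2 was at 18.2, 19.1 and 18.1 CPM in shCTL and at 32.2, 31.6 and 34.0 CPM in shPBRM1 libraries (log2 fold change 0.82, SE 0.040, adjusted p = 2.06e-11). NDUFC1 (0.76, SE 0.087, adjusted p = 1.29e-08) and NDUFB2 (0.67, SE 0.088, adjusted p = 4.44e-09) followed on the log2 scale. NDUFC1 rose from 9.90 to 16.8 CPM and NDUFB2 from 21.8 to 34.4 CPM in the means. The smallest log2 fold changes among the accessory genes called higher were in NDUFA11 (0.25), NDUFB5 (0.28), NDUFS6 (0.29), NDUFA3 (0.31) and NDUFB10 (0.33). Of these, NDUFA3 was the most variable, at 52.3, 55.7 and 43.2 CPM in the shPBRM1 libraries against 42.4, 40.4 and 38.6 CPM in shCTL, and NDUFA11 lost its call without shCTL replicate 3 (adjusted p = 0.0684). The other 13 accessory genes that were higher had log2 fold changes between 0.35 and 0.63, with standard errors of at most 0.11.

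The 7 accessory genes that did not pass the test were NDUFA7, NDUFA8, NDUFA9, NDUFA10, NDUFA13, NDUFS4 and NDUFV3. NDUFS4, a subunit of the NADH-oxidizing arm whose loss causes Leigh syndrome, was at 39.6, 41.8 and 46.6 CPM in shCTL and at 44.9, 40.2 and 44.2 CPM in shPBRM1 libraries, and the groups overlapped (log2 fold change 0.02, SE 0.085, adjusted p = 0.825). NDUFA10, at 51.9 ± 1.64 and 53.1 ± 1.90 CPM (SD, n = 3), and NDUFA8, at 38.7 ± 2.42 and 40.9 ± 2.15 CPM (SD, n = 3), were likewise well measured, with log2 fold changes of 0.03 and 0.08. NDUFA9 had non-overlapping groups, at 17.9, 18.0 and 17.6 CPM in shCTL and 18.3, 19.1 and 20.4 CPM in shPBRM1 libraries, but an adjusted p = 0.138. NDUFA13, at 1.02 and 0.954 CPM, and NDUFA7, at 0.223 and 0.305 CPM in shCTL and shPBRM1 cells, were measured from few reads. They share 21.0% and 32.3% of their exon length with other genes of the same strand, and reads in such stretches may have been left out of the counting.

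Complex II, the succinate dehydrogenase, links the citric acid cycle to the chain and has no mitochondrial-encoded subunit. Its 4 genes were divided, with 2 higher and none lower, compared with 31.5% and 33.2% of all tested genes. SDHB, the iron-sulfur subunit, was at 49.1, 52.4 and 52.6 CPM in shCTL and at 68.8, 71.2 and 70.9 CPM in shPBRM1 libraries (log2 fold change 0.45, SE 0.035, adjusted p = 8.64e-10). SDHC, a membrane anchor, was at 55.2, 51.8 and 49.2 CPM in shCTL and at 66.1, 73.8 and 77.3 CPM in shPBRM1 libraries (log2 fold change 0.48, SE 0.083, adjusted p = 2.23e-08). SDHD, the other membrane anchor, was at 45.7, 48.8 and 45.5 CPM in shCTL and at 46.7, 47.6 and 47.9 CPM in shPBRM1 libraries. Its groups overlapped, and the log2 fold change of 0.02 (SE 0.034, adjusted p = 0.666) was smaller than the spread between replicates. SDHA, the flavoprotein, was at 28.3, 26.0 and 28.3 CPM in shCTL and at 30.5, 28.9 and 26.6 CPM in shPBRM1 libraries (log2 fold change 0.06, SE 0.071, adjusted p = 0.418), with pseudogene rows holding 31.8% as many counts, mainly SDHAP1.

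All 9 nuclear-encoded genes of complex III were higher in shPBRM1 cells, and none had overlapping groups, whereas 33.3% of all tested genes were higher without overlap and 35.0% lower. UQCR10, a small accessory subunit, was at 10.8, 12.0 and 11.2 CPM in shCTL and at 20.6, 19.3 and 22.4 CPM in shPBRM1 libraries. Its level was thus 1.83-fold higher (log2 fold change 0.88, SE 0.076, adjusted p = 3.96e-10). UQCRH, the hinge protein beside cytochrome c1, was at 134, 145 and 135 CPM in shCTL and at 199, 225 and 232 CPM in shPBRM1 libraries (log2 fold change 0.66, SE 0.075, adjusted p = 1.79e-11). UQCRHL, a near-identical copy of UQCRH, was higher as well, from 5.21 to 8.85 CPM, and reads may be divided between them. UQCRB was at 136, 142 and 147 CPM in shCTL and at 208, 215 and 229 CPM in shPBRM1 libraries (log2 fold change 0.61, SE 0.051, adjusted p = 4.94e-12).

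The other nuclear-encoded genes of complex III had smaller increases than UQCR10, UQCRH and UQCRB. CYC1, cytochrome c1, was at 103, 110 and 100 CPM in shCTL and at 131, 136 and 135 CPM in shPBRM1 libraries (log2 fold change 0.36, SE 0.043, adjusted p = 1.1e-08). UQCRFS1, the Rieske iron-sulfur protein, was at 74.1, 76.7 and 74.4 CPM in shCTL and at 84.9, 85.7 and 88.6 CPM in shPBRM1 libraries (log2 fold change 0.20, SE 0.024, adjusted p = 2.11e-05). The core proteins UQCRC1 and UQCRC2 had log2 fold changes of 0.31 (SE 0.049, adjusted p = 2.62e-07) and 0.20 (SE 0.069, adjusted p = 2.77e-04). UQCRC2 was at 102 CPM in shPBRM1 replicate 2, close to the 99.7 CPM of shCTL replicate 1. The remaining small subunits UQCR11 and UQCRQ had log2 fold changes of 0.34 (SE 0.053, adjusted p = 1.55e-04) and 0.25 (SE 0.046, adjusted p = 1.01e-05). The call of UQCRQ was lost under the block with GC and length offsets (0.04, adjusted p = 0.340). Against these 9 increases stood the decrease of MT-CYB, so that the ratio of MT-CYB to the summed nuclear-encoded genes of complex III was 5.19, 4.17 and 4.49 in the shCTL and 2.78, 2.76 and 2.68 in the shPBRM1 libraries.

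NDUFA4, whose product was once assigned to complex I and is now known as a subunit of complex IV, had the largest increase of the 63 genes. It was at 90.3, 97.7 and 91.5 CPM in the shCTL libraries and at 179, 185 and 198 CPM in the shPBRM1 libraries. The lowest shPBRM1 library was far above the highest shCTL library, and the log2 fold change was 1.01 (SE 0.054, adjusted p = 6.12e-16). Among the tissue-specific and inducible paralogs of chain subunits, NDUFA4L2, its hypoxia-responsive paralog, was lower at 3.40 and 1.54 CPM in shCTL and shPBRM1 cells (log2 fold change -1.12, SE 0.22), as was C15orf48, another paralog that replaces NDUFA4 under inflammatory signals (2.28 and 1.32 CPM, log2 fold change -0.78). COX7A1, the muscle form of a complex IV subunit, was at 1.27 and 0.350 CPM (log2 fold change -1.99, SE 0.61). COX7A2L (61.7 and 69.3 CPM, log2 fold change 0.17) and UQCRHL (5.21 and 8.85 CPM, log2 fold change 0.76) were higher. In all, 2 of 6 tested paralogs were higher and 3 were lower, compared with 31.5% and 33.2% of all tested genes. The other 4 of the 10 listed had too few counts.

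The nuclear-encoded subunits of complexes IV and V were mostly higher as well. Of 10 nuclear-encoded subunits of complex IV, 9 were higher and none was lower, with a median log2 fold change of 0.59, the largest in COX7C (157 to 256 CPM, 0.70) and the smallest of those called in COX4I1 (189 to 234 CPM, 0.31). COX5B was the exception, at 45.4 and 47.0 CPM. All 18 ATP synthase genes were higher, with a median of 0.48, from 0.17 in ATP5PD to 0.81 in ATP5F1A, which encodes the catalytic-ring subunit alpha (290 to 506 CPM). Both complexes contain mitochondrial-encoded subunits, all 5 of which were lower. The assembly factors were mixed in direction, as were all tested genes (31.5% higher and 33.2% lower). Of 15 complex I assembly factors, 4 were higher and 4 were lower, with a median of 0.03, from -0.38 in NDUFAF3 to 0.48 in NUBPL. Of 10 factors for complexes II and III, 6 were higher and 2 were lower, from -0.13 in UQCC1 to 0.53 in LYRM7. The differences between these lists were not tested.

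The nuclear-encoded genes were also compared with genes of similar level and by exon overlap. Of the 33 nuclear-encoded genes with a mean above 5 on the log2 CPM scale, 29 were higher, and of the 17 at or under it, 11 were higher. Among all tested genes above that level, 49.1% were higher and 32.1% were lower, with a median log2 fold change of 0.09. Exon overlap with other genes made little difference to the count: of 35 nuclear-encoded genes with under 1% of their exon length shared on the same strand, 29 were higher, and of 22 with no exon overlap on either strand, 17 were higher. Among the genes named above, NDUFS3 shares 19.6% of its exon length with PTPMT1 and NDUFC1 18.5% with MGARP. The same-strand share was 11.2% in SDHD, 10.9% in UQCR11, 10.6% in NDUFA9, 9.65% in NDUFA11 and 8.36% in NDUFV1. Exons of the opposite strand overlap NDUFA2 (with IK and TMCO6), NDUFB9 (with MTSS1 and TATDN1), NDUFS1 (with EEF1B2), NDUFS3 (with CELF1 and KBTBD4) and NDUFV1 (with C11orf72). They also overlap NDUFS7, NDUFB2, NDUFA3, NDUFA7, NDUFA11, SDHC, SDHD, UQCRB, UQCRFS1 and UQCRQ. Reads of such exons cannot be told apart from those of these genes if strand was not used. With the replicate number as a block, the same counts of 40 nuclear-encoded genes higher, 11 mitochondrial-encoded genes lower and 1 higher were obtained. Within each replicate number, 49, 44 and 48 of the 50 nuclear-encoded genes were higher in the shPBRM1 library, and their median log2 ratio was 0.33, 0.36 and 0.40 for replicates 1, 2 and 3, without the weight on replicate 1 seen for the mitochondrial-encoded genes.

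Short genes had the larger increases. Of the 32 nuclear-encoded genes with a coding length under 600 bases, 27 were higher, with a median log2 fold change of 0.47, whereas of the 18 longer genes, 13 were higher, with a median of 0.22. Spearman's rho between log2 fold change and coding length was -0.59 over the 50 genes, which share the same 6 libraries. With GC content of the transcript it was -0.30, and with the level it was 0.05. Over all 13128 tested genes with a coding length, the correlation was in the same direction but weaker, with a rho of -0.11. Of all tested genes with a coding length under 600 bases, 48.1% were higher, with a median log2 fold change of 0.17, against 32.0% and -0.04 for longer genes. Above 5 on the log2 CPM scale, the share was 70.0% for the short and 46.8% for the longer genes. When GC content and transcript length were fitted as offsets with the replicate block, 35 of the 50 genes were higher and 3 (NDUFS4, SDHD and NDUFA8) were lower, with a median of 0.25. All 13 mitochondrial-encoded genes were then lower, with a median of -0.47, so that the distance between the medians of both sets was 0.72 with these offsets and 0.56 without them on the log2 scale.

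**Figure D5:**
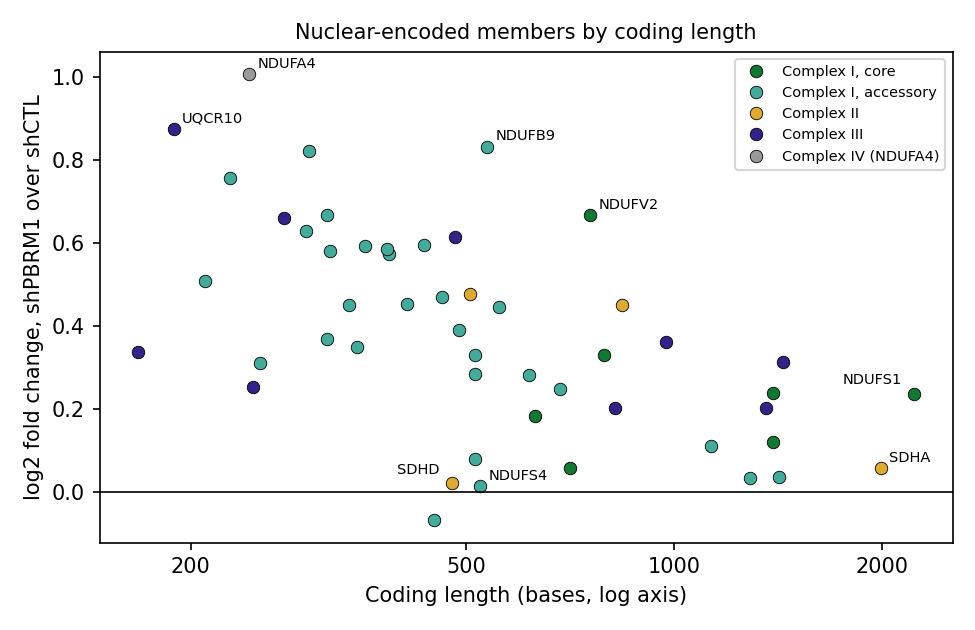
Log2 fold change of the 50 nuclear-encoded genes in shPBRM1 relative to shCTL cells against their coding length in bases (log axis), colored by complex. Genes under 600 bases have a median of 0.47 and longer genes a median of 0.22, and SDHD, NDUFS4 and NDUFA8 are short genes near 0.

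The nuclear-encoded genes of the chain are known targets of the transcription factors NRF1, GABPA (an ETS factor, also called NRF2) and YY1. Among 8 such regulators and coactivators, NRF1 (10.9 to 14.2 CPM, log2 fold change 0.38, SE 0.094) and GABPA (49.3 to 58.2 CPM, 0.24, SE 0.059) were higher. The coactivators PPARGC1A, at 1.82 and 0.496 CPM (log2 fold change -1.88), and PPARGC1B, at 29.7 and 20.4 CPM (-0.55), were lower, as were PPRC1 and GABPB1. YY1 did not pass the test, at 204 and 205 CPM. Of the 8 genes, 2 were thus higher and 4 were lower, compared with 31.5% and 33.2% of all tested genes. Promoters of 42 of the 50 nuclear-encoded genes were matched in the RefSeq table, as windows of 300 bases from 250 before to 50 after the start of the gene (GRCh38.p14), and searched on both strands. The NRF1 motif (GCGCA and GCGC with any single base between them) was in 12 of them (28.6%), compared with 6.28% of all promoters in the table and 11.4% of those of tested genes. The ETS motif CCGGAAG was in 10 (23.8%, compared with 10.7% and 18.5%), and the YY1 motif AAGATGGCG was in 7 (16.7%, compared with 1.85% and 3.76%). The ETS and YY1 motifs can share the letters AAG. The median log2 fold change with and without the motif was 0.28 and 0.38 for NRF1, 0.34 and 0.34 for the ETS motif, and 0.31 and 0.34 for YY1. In these windows, the medians with a motif, over 7 to 12 genes each, were no higher than those without. The part of these factors in the increases was not tested. To show genes on both sides of the threshold, 4 promoters are given as examples, with the motifs in capitals: those of UQCR10 and NDUFA12, which have an NRF1 motif and were higher, and those of SDHD, with NRF1 and ETS motifs, and NDUFS4, with a YY1 motif, which did not pass the test. Each is written 5′ to 3′ on the strand of its gene.
UQCR10, chr22:29767119-29767418, plus strand: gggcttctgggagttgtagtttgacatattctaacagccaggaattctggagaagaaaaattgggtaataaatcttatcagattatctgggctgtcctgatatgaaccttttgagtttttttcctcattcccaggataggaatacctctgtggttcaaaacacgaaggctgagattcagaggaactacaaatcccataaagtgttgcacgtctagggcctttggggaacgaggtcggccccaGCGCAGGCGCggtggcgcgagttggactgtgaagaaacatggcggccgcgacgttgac
NDUFA12, chr12:95003648-95003947, minus strand: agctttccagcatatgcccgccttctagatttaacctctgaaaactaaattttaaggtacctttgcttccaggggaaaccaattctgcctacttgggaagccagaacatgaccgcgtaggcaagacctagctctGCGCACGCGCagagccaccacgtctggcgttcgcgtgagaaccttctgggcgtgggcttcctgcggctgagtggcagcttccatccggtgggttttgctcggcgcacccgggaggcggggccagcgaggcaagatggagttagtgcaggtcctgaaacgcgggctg
SDHD, chr11:112086623-112086922, plus strand: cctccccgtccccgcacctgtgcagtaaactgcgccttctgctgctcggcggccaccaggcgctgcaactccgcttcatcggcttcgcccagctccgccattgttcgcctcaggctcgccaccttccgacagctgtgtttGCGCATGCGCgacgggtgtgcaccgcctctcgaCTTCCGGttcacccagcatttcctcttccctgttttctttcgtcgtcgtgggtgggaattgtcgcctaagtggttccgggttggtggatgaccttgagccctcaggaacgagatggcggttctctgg
NDUFS4, chr5:53560389-53560688, plus strand: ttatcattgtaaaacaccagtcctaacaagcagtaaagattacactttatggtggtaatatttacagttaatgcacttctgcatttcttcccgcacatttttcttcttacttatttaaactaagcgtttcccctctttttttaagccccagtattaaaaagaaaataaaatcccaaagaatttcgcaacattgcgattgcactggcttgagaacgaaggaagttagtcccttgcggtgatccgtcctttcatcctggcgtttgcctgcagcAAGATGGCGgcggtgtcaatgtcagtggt
In SDHD the ETS motif lies on the reverse strand and is printed as CTTCCGG. NDUFA12 had 31.4 ± 1.75 CPM in shCTL cells, compared with 47.5 ± 2.03 CPM in shPBRM1 cells (SD, n = 3 each; log2 fold change 0.60).

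The nuclear genes that transcribe, process and degrade mitochondrial RNA were mixed in direction. So were all tested genes, of which 31.5% were higher and 33.2% lower. Of 18 genes for mtDNA maintenance and transcription, 9 were higher and 3 were lower, or 4 with the replicate block, which added TOP1MT (adjusted p = 0.0416). TFAM, which packages mtDNA and starts transcription, was at 82.8 and 93.4 CPM in shCTL and shPBRM1 cells (log2 fold change 0.18, SE 0.051), and POLRMT, the mitochondrial RNA polymerase, was at 30.2 and 31.8 CPM and did not pass the test (adjusted p = 0.203). The extremes were RRM2B (0.47), which supplies deoxynucleotides, and TWNK (-0.54), the replicative helicase. Of 18 genes for processing and stability of mitochondrial RNA, 9 were higher and 3 were lower, or 4 with the block, which added TRMT10C (adjusted p = 0.0373). PNPT1, which encodes the mitochondrial polynucleotide phosphorylase, was at 142 CPM in shCTL and 38.0 CPM in shPBRM1 cells (log2 fold change -1.89, SE 0.066). SUPV3L1, the helicase that works with it in the mitochondrial RNA degradosome, was at 72.6 and 46.8 CPM (-0.63, SE 0.042). PRORP, the nuclease of mitochondrial RNase P, was at 3.57 and 6.81 CPM (0.93, SE 0.12), and SLIRP, which stabilizes mitochondrial mRNAs together with LRPPRC, was at 28.9 and 45.4 CPM (0.65, SE 0.098), whereas LRPPRC itself did not pass the test, at 222 and 216 CPM. Among 12 mitochondrial chaperones and proteases, 5 were higher and 3 were lower, between HSPE1 (0.59) and ATF5 (-0.53), a transcription factor of the mitochondrial stress response. These lists were chosen with results of the same libraries known, and their part in the values of the 63 genes was not tested.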

How the data were processed

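RNA-seq of 6 BT-549 libraries, 3 shCTL and 3 shPBRM1, was used as the raw counts per gene symbol that the authors deposited, before any normalization. The submitters' processing notes name CASAVA 1.8.2, STAR 2.7.9a, featureCounts, DESeq2 1.24.0 and GRCh38.p7, without their roles or the strand setting. Groups and replicate numbers came from the sample titles; the control columns carry only the name of the line and a replicate number.

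Counts were scaled by TMM and tested with edgeR 4.0.16 in R 4.3.3 (filterByExpr, 15450 genes kept; quasi-likelihood test; Benjamini-Hochberg adjustment; calls at an adjusted p under 0.05). CPM values are TMM-scaled. Standard errors (SE) were computed between replicates on log2 CPM, with a prior count of 2. Levels per kilobase use the union of exons in GENCODE v29 (GRCh38), which also gave positions, coding length (longest coding transcript) and GC content. The floor of detection was 3 counts, and covers counting error only. P-values measure the spread between cultures grown in triplicate.

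Deviations from the group means were correlated between libraries of 1 replicate number (r = 0.734, 0.593 and 0.419 over 5621 genes, which are not independent replicates). For different numbers, r was -0.671 to 0.465, with the highest value between shCTL replicate 2 and shPBRM1 replicate 3. The numbers come from the titles. They matched replicate 1 most clearly, whereas shPBRM1 replicate 3 correlated more with shCTL replicate 2 than with its own number. Whether the cultures were paired was not tested. Chi-square per degree of freedom between libraries of a group was 4.92 to 24.9, above sampling noise. Genes were named by a rule: all 13 mitochondrial-encoded genes, the SDH, UQCR and CYC1 genes, the 7 core NDUF genes, the 5 highest and 5 lowest called among other NDUF genes, and the highest and lowest called gene of each further list; others were named after their values were seen. Single values of a few genes covered by this rule are not reported here. The genes and lists were chosen with earlier results of these data known. In simulated counts, 75 of 100 genes changed 1.5-fold and 81 of 100 changed 2-fold were recovered among 15147 genes tested, with 13 false calls. Only 200 genes were changed there, and libraries were drawn independently of their replicate number. In the data, 64.7% of tested genes were called and deviations were shared between groups, so that these values do not give the error rate of the data. Alternatives were DESeq2 1.42.0, RLE factors, library size only, scaling without the mitochondrial-encoded genes, no filter, a mean of at least 50 counts, a replicate block, stricter thresholds and each library left out; a block with GC content and length offsets, and leaving out replicate 1 of both groups, were chosen after seeing the data.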

Additional observations from a re-analysis of the deposited data

How the results depend on the processing

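Across the settings tried, between 35 and 40 of the 50 nuclear-encoded genes were called higher at the adjusted p threshold, and the median of the 13 mitochondrial-encoded genes stayed below that of the nuclear-encoded genes. With a fold change over 2 added, 1939 of all genes were called (443 higher, 1496 lower), with 0 mitochondrial-encoded genes (0 higher, 0 lower) and 1 nuclear-encoded gene (1 higher). DESeq2 called 7 mitochondrial-encoded genes lower; MT-ND1, MT-ND4L, MT-CO1 and MT-ATP6 lost their calls. Without replicate 1 of both groups, 7 were called and 6 of them lower. With library size only, the median of the nuclear-encoded genes was 0.31. The replicate block by itself changed no call among the 63 genes, and added 1 lower call in each of the lists for mtDNA maintenance and for mitochondrial RNA processing. The block together with GC content and length offsets gave 0 mitochondrial-encoded genes higher and 3 nuclear-encoded genes lower, and medians of -0.47 and 0.25. Leaving out each library in turn gave 9 to 11 mitochondrial-encoded genes lower (10 to 12 called, 1 higher), 38 to 40 nuclear-encoded genes higher and 0 lower. The medians were then -0.26 to -0.12 (the last without shCTL replicate 1) and 0.34 to 0.38. The difference in mitochondrial-encoded share was -0.76 to -0.46 percentage points. Signs turned for MT-ND2 (-0.034 with library size only, -0.050 to 0.087 over the libraries left out, negative only without shCTL replicate 2, and -0.18 with the block and offsets), SDHD (-0.025 with library size only, -0.12 with the block and offsets) and, with the block and offsets, MT-ND3 (-0.14), NDUFS7 (-0.0083), NDUFB5 (-0.030) and NDUFA8 (-0.11). Among genes that did not pass the test, signs also turned for NDUFA10 (-0.015 with library size only, -0.060 with the block and offsets), NDUFV3 (-0.011 and -0.0080) and NDUFS4, in 7 settings (-0.30 with the block and offsets, -0.058 without replicate 1 of both groups, the others -0.034 to -3.7e-04), and for NDUFA13 without shCTL replicate 1 (0.11) or shPBRM1 replicate 2 (0.020). Of the other alternatives for the genes taken up by the naming rule, 617 kept direction and side of the threshold and 20 lost the call. Beyond the construction of each setting, the cause was not tested. The values of genes at few reads (NDUFA7, NDUFA13, NDUFV2) are less certain. These genes share 32.3%, 21.0% and 28.4% of their exon length with other genes of the same strand, and the cause of their low counts was not tested.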
